A study of Mus musculus with 36 samples.

Results

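Cholesterol synthesis was followed during the conversion of B cells into macrophages through 7 genes, the transcription factor gene Srebf2 and the 6 enzyme genes Hmgcs1, Idi1, Fdft1, Sqle, Lss and Dhcr7. They were chosen by name, and all 7 were found among the 40354 genes of the count tables and among the 19067 genes of the log2 tables. None of the 7 encodes a receptor that takes up lipoproteins, so they describe synthesis rather than uptake. The cells were B cells from bone marrow of C57BL/6J mice, infected with a retrovirus that encodes the transcription factor C/EBPα fused to the estrogen receptor together with human CD4, and enriched for human CD4. Estradiol (E2) lets the fusion enter the nucleus, which starts B cell to macrophage transdifferentiation (BMT). The constructs were the wild-type factor (WT) and mutants in which 1 arginine was replaced by alanine (R35A) or by lysine (R35K). Cells were collected before induction (0 hours post induction, hpi) and then 1, 3, 6, 18 and 120 hours later, with 2 biological replicates in each of the 18 groups, 36 libraries in all. All groups, the 0 hpi ones included, carried a construct and were cultured on inactivated mouse fibroblast feeders, which were removed by adherence. By the study's methods the B cells were expanded with IL-7, and the medium for BMT held IL-7, IL-3, FLT-3, mCSF-1 and mSCF. Every 2 days the medium was renewed without IL-7. The study asked how the arginine affects the speed of BMT.

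Cells make cholesterol from acetyl-CoA through the mevalonate pathway, which builds isoprenoid units, joins them to squalene and closes squalene into the sterol ring. The pathway is governed by SREBP2, the product of Srebf2. When sterols in the endoplasmic reticulum are low, SCAP escorts SREBP2 to the Golgi, where it is cleaved, and the released fragment switches on genes of synthesis and uptake, Srebf2 itself included. When sterols are high, INSIG proteins retain the complex, and LXR receptors switch on genes of cholesterol efflux. Macrophages engulf cholesterol-rich particles and cells and depend on storage and efflux of cholesterol, while dividing B cell precursors make membranes at a high rate.

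The libraries held 13044456 to 23131776 counted reads, with a median of 15471229.5. Markers of both cell types were checked first. The summed level of 8 B cell markers in WT cells, in CPM (counts scaled to the same library size), was 3763 to 3786 at 0 hpi and 124 to 129 at 120 hpi, and that of 8 macrophage markers was 74.2 to 76.7 at 0 hpi and 20043 to 20306 at 120 hpi. Markers of feeder fibroblasts were present throughout. In WT cells the sum of 8 such genes was 6705 to 6779 CPM at 0 hpi, 16542 to 16951 CPM at 18 hpi and 9240 to 9358 CPM at 120 hpi, where Lum was at 0. At 18 hpi it was 11761 to 11849 CPM in R35A and 9894 to 10140 CPM in R35K. The 6 granulocyte markers summed to at most 28.1 CPM and the 5 T cell markers to at most 2.54 CPM in every library. In bulk RNA, fewer cells of a type and less RNA per cell cannot be told apart, and the part of the fibroblast signal in the results below was not tested.

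The promoters show which members carry the letters that SREBP2 and C/EBP factors are known to favour. RefSeq windows on GRCm38.p6 from 250 bases before to 50 bases after an annotated start were held for 5 of the 7 members and are given here for Srebf2, Hmgcs1, Dhcr7 and Lss, whose levels carry the results. Both strands were searched for TCACNCCA, a core of the sterol regulatory element, for CCAAT, the box of the cofactor NF-Y, and for TTGCNNAA, a form of the C/EBP site. Capitals mark every match in the gene's own direction, so that CCAAT on the other strand reads as ATTGG. The windows lie at chr15:82147019-82147318 for Srebf2, chr13:119690101-119690400 for Hmgcs1, chr7:143822917-143823216 and chr7:143829964-143830263 for the first and the last of the Dhcr7 starts, and chr10:76531355-76531654 for Lss, all on the plus strand.
Srebf2: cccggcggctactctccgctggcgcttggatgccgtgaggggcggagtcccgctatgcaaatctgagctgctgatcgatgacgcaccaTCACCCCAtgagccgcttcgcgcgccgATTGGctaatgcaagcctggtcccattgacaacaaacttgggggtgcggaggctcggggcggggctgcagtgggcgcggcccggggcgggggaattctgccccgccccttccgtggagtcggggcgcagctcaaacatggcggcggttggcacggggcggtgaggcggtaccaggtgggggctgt
Hmgcs1: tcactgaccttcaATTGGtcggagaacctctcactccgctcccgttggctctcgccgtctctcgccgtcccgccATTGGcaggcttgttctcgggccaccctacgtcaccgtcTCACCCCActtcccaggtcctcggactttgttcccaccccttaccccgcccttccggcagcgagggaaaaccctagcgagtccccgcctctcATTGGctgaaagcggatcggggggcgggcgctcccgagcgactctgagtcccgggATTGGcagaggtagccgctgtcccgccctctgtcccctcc
Dhcr7, first start: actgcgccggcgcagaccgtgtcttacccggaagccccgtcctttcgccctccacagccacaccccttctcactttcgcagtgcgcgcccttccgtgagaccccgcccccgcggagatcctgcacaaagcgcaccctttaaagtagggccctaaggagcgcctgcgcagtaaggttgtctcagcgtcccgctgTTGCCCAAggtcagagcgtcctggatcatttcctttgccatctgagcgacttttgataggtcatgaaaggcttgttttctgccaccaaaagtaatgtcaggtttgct
Dhcr7, last start: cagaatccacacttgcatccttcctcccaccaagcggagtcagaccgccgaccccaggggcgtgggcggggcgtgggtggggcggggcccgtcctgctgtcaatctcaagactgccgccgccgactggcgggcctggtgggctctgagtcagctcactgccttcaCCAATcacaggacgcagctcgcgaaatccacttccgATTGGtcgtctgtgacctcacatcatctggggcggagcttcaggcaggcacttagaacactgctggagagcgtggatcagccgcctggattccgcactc
Lss: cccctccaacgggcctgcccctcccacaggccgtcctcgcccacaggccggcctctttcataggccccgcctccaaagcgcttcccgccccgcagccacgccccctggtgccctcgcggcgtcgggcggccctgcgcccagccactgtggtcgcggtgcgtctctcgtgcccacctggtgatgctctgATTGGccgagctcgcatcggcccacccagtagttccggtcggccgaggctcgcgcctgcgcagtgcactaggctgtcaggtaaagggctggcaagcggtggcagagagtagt
The core TCACNCCA stood at position -162 relative to the start in Srebf2 and at position -137 in Hmgcs1, with the start itself counted as 0. It was found in 4.36% of the 32851 windows of the same length. CCAAT or its complement was found in Srebf2 at -135, at 4 places in Hmgcs1, in Lss at -62, in Idi1 at -45 and -14, and in the last Dhcr7 window at -85 and -49. That box was found in 37.4% of all windows. TTGCNNAA stood only in the first Dhcr7 window, at -57, and in 10.8% of all windows. A match describes these letters and not a bound site, and no binding data were used here.

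Srebf2, the regulator itself, followed a V-shaped course. Its gene lies at chr15:82147181-82205379 on the plus strand of mm10, and it had 1340 to 3178 counts in every library. In WT cells the 2 libraries gave 184 and 188 CPM at 0 hpi, 146 and 154 CPM at 1 hpi, 133.7 and 133.9 CPM at 3 hpi, 115 and 125 CPM at 6 hpi, 87.3 and 89.7 CPM at 18 hpi, and 248 and 235 CPM at 120 hpi. The libraries of successive timepoints did not overlap at any step. At 18 hpi Srebf2 had fallen 2.10-fold from 0 hpi, a log2 fold change of -1.07 ± 0.04 (SE, n = 2 per group, adjusted p = 1.51e-28 in edgeR's quasi-likelihood test). From 18 to 120 hpi it rose 2.73-fold (log2 fold change 1.45 ± 0.04, adjusted p = 7.01e-35).

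In R35A cells the 2 libraries gave 169 and 173 CPM at 0 hpi, 121 and 119 CPM at 1 hpi, 121 and 129 CPM at 3 hpi, and 115 and 115 CPM at 6 hpi. They then gave 111 and 108 CPM at 18 hpi and 209 and 206 CPM at 120 hpi. In R35K cells they gave 179.5 and 193 CPM at 0 hpi, 124 and 123 CPM at 1 hpi, 128.5 and 128 CPM at 3 hpi, 130 and 123 CPM at 6 hpi, 107 and 108 CPM at 18 hpi, and 173 and 168 CPM at 120 hpi. Both mutants were thus low from 1 hpi on, with a shallower low at 18 hpi than WT. Srebf2 fell 1.56-fold by 18 hpi in R35A (log2 fold change -0.64 ± 0.04, adjusted p = 3.96e-20), a call that ended with DESeq2 (-0.58), and 1.73-fold in R35K (-0.79 ± 0.04, adjusted p = 1.15e-17). At 1 hpi it fell 1.5-fold in R35K (-0.59 ± 0.04, adjusted p = 3.64e-14), at the edge of the 1.5-fold threshold, while the values were -0.51 ± 0.04 in R35A and -0.30 ± 0.04 in WT. The call at 1 hpi in R35K ended with DESeq2, with its size factors, with another low-count filter or none, and with 1 fit over the 36 libraries, at -0.51 to -0.58.

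**Figure D1:**
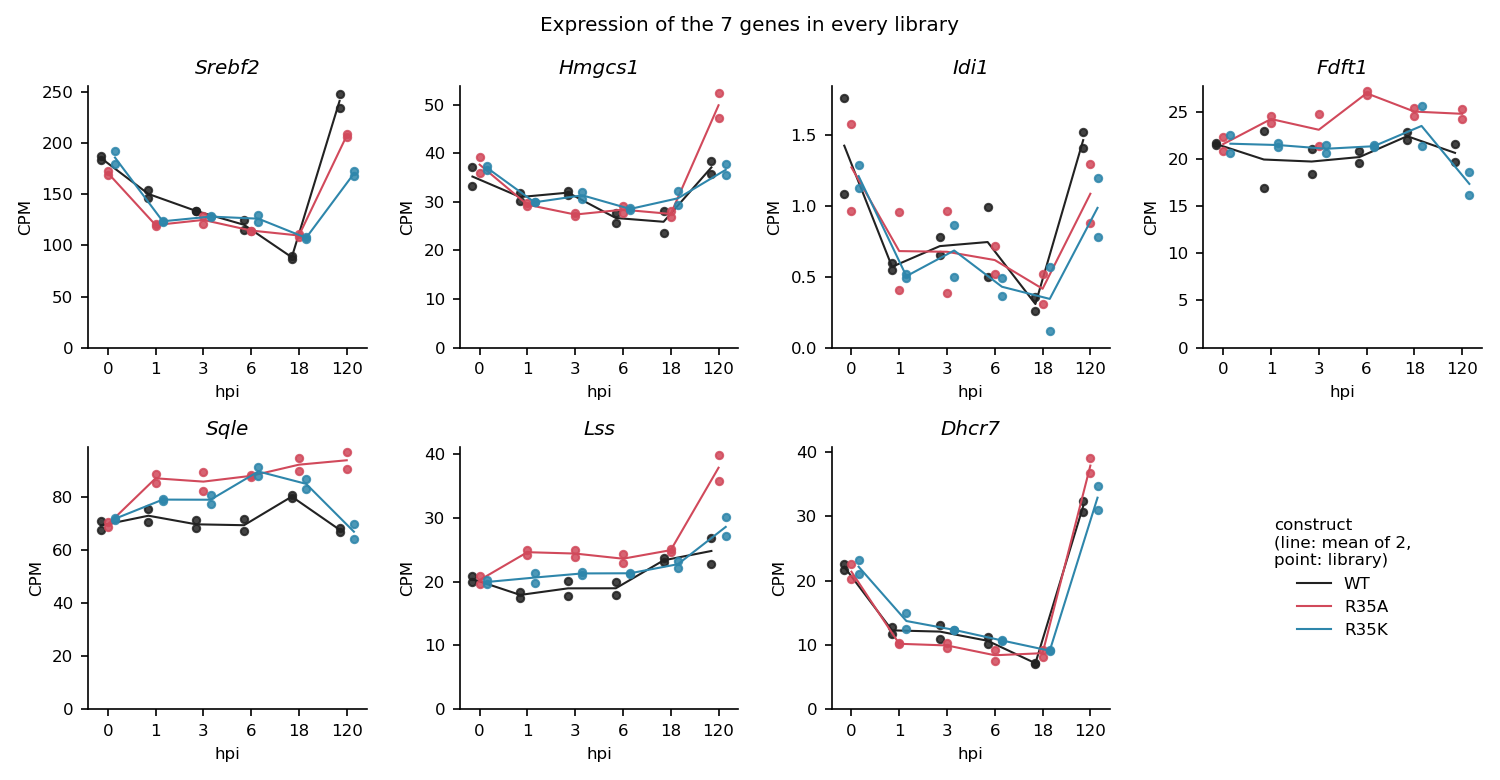
CPM of the 7 genes (vertical axis, linear, 1 panel a gene) at each timepoint (horizontal axis, hpi, evenly spaced) for WT, R35A and R35K, with a point for each library and a line through the mean of the 2 libraries. Srebf2, Hmgcs1, Idi1 and Dhcr7 dip after induction and recover at 120 hpi, the dip of Hmgcs1 staying under 1.5-fold. Hmgcs1, Fdft1, Sqle and Lss were not called lower at any timepoint. CPM were scaled within each deposited table, so WT and R35A share a scale and R35K has its own.

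Of the 6 member enzymes Dhcr7 fell the furthest at 18 hpi, after the sparsely counted Idi1. Dhcr7 encodes the reductase that makes cholesterol from 7-dehydrocholesterol in the last step of one branch of the pathway, and lies at chr7:143823145-143848410 on the plus strand. In WT cells it gave 22.6 and 21.7 CPM at 0 hpi, 12.8 and 11.7 CPM at 1 hpi, 13.2 and 10.97 CPM at 3 hpi, 11.2 and 10.1 CPM at 6 hpi, 7.23 and 7.05 CPM at 18 hpi, and 30.8 and 32.4 CPM at 120 hpi. Every library from 1 to 18 hpi was below those at 0 hpi, and both libraries at 120 hpi were above them. Dhcr7 fell at 1 hpi in WT (log2 fold change -0.86 ± 0.10, adjusted p = 2.08e-10), in R35A (-1.08 ± 0.10, adjusted p = 6.56e-14) and in R35K (-0.69 ± 0.09, adjusted p = 5.94e-08), the last a call that ended without replicate 2 of R35K at 1 hpi (-0.56). The fall reached 3.1-fold at 18 hpi in WT (-1.63 ± 0.11, adjusted p = 1.04e-18). In R35A its largest value was -1.37 ± 0.10 at 6 hpi (adjusted p = 3.19e-17), and in R35K -1.28 ± 0.10 at 18 hpi (adjusted p = 2.01e-13).

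The recovery of Dhcr7 from 18 to 120 hpi was steeper than that of the other members apart from the sparsely counted Idi1 in WT. It rose 4.42-fold in WT (log2 fold change 2.14 ± 0.11, adjusted p = 2.46e-24), 4.33-fold in R35A (2.11 ± 0.10, adjusted p = 5.93e-26) and 3.62-fold in R35K (1.86 ± 0.10, adjusted p = 2.2e-18). At 120 hpi the libraries gave 36.7 and 39.1 CPM in R35A and 34.8 and 31.1 CPM in R35K, against 20.2 and 22.6 CPM and 21.1 and 23.3 CPM at 0 hpi. Against 0 hpi the R35A cells were 1.77-fold higher (0.82 ± 0.08, adjusted p = 6.8e-13). The values in WT (0.51 ± 0.09) and R35K (0.57 ± 0.08) were under 1.5-fold, though both passed it with DESeq2's size factors or with 1 fit over the 36 libraries (0.64 to 0.71 over these alternatives).

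Hmgcs1 and Idi1 act early, in the part that builds isoprenoid units. Hmgcs1 (chr13:119690379-119708260, plus strand) joins acetoacetyl-CoA and acetyl-CoA to HMG-CoA. In WT cells it gave 37.1 and 33.3 CPM at 0 hpi, 27.7 and 25.6 CPM at 6 hpi, 23.6 and 28.2 CPM at 18 hpi and 38.4 and 35.7 CPM at 120 hpi. The libraries at 6 and at 18 hpi were below both at 0 hpi, by a log2 fold change of -0.40 ± 0.08 (adjusted p = 1.49e-05) and -0.44 ± 0.08 (adjusted p = 2.2e-06), which is under 1.5-fold. In R35A it gave 39.3 and 36 CPM at 0 hpi, 26.9 and 28.1 CPM at 18 hpi and 52.4 and 47.3 CPM at 120 hpi. There it rose 1.81-fold from 18 to 120 hpi (0.85 ± 0.07, adjusted p = 4.77e-15), while the values were 0.52 ± 0.08 in WT and 0.25 ± 0.07 in R35K.

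Idi1 (chr13:8885501-8892451, plus strand) encodes the isomerase that makes dimethylallyl diphosphate, and was barely detected, with 2 to 29 counts in a library. In WT cells the counts were 25 and 15 at 0 hpi, 8 and 10 at 1 hpi, 12 and 11 at 3 hpi, 15 and 8 at 6 hpi, 4 and 6 at 18 hpi, and 17 and 17 at 120 hpi. In R35A they were 14 and 29 at 0 hpi, 8 and 6 at 18 hpi and 11 and 18 at 120 hpi, and in R35K 19 and 20, 2 and 9, and 15 and 10. At 18 hpi no library had more than 9 counts, and none at 0 hpi had fewer than 14. The log2 fold changes there were -2.18 ± 0.49 in WT (adjusted p = 0.00011), -1.67 ± 0.45 in R35A (adjusted p = 0.000961) and -1.83 ± 0.48 in R35K (adjusted p = 0.00119). Idi1 was also called lower at 1, 3 and 6 hpi in WT and R35A and at 1 and 6 hpi in R35K, with adjusted p of 0.00481 to 0.0423. Of these 8 early calls, 7 ended with DESeq2, and those of WT and R35A ended without 1 library at 0 hpi, replicate 1 in WT (adjusted p 0.194 to 0.411) and replicate 2 in R35A (0.0671 to 0.458, its call at 18 hpi included). The call at 1 hpi in R35K ended without replicate 2 at 0 hpi or either replicate at 1 hpi (adjusted p 0.0576 to 0.0763).

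The members from the middle of the pathway were not among those called lower. Fdft1 encodes squalene synthase, Sqle the squalene epoxidase that carries out the first oxygen-requiring step, and Lss the lanosterol synthase that closes the ring. None of the 3 was called lower at any timepoint in any construct, and neither was Hmgcs1. Sqle (chr15:59315077-59331192, plus strand) gave 71.0 and 67.6 CPM at 0 hpi in WT, 79.6 and 80.8 CPM at 18 hpi and 68.4 and 67.0 CPM at 120 hpi. In R35A it gave 68.7 and 70.6 CPM at 0 hpi, 85.3 and 88.9 CPM at 1 hpi, 94.7 and 89.8 CPM at 18 hpi and 90.7 and 97.1 CPM at 120 hpi, with no overlap with 0 hpi. The log2 fold changes in R35A were 0.32 ± 0.05 at 1 hpi (adjusted p = 7.15e-08) and 0.43 ± 0.05 at 120 hpi (adjusted p = 4.16e-11), both under 1.5-fold.

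Fdft1 (chr14:63145150-63179578, minus strand) gave 21.7 and 21.5 CPM at 0 hpi in WT and 16.9 to 22.9 CPM over the later WT libraries. In R35A it gave 22.3 and 20.8 CPM at 0 hpi and 26.7 and 27.2 CPM at 6 hpi (log2 fold change 0.33 ± 0.09, adjusted p = 0.00101), and in R35K 18.6 and 16.1 CPM at 120 hpi (-0.32 ± 0.09, adjusted p = 0.00286). Of its 4227 exon bases, 774 (18.3%) overlap exons of Ctsb on the other strand. Ctsb encodes the lysosomal protease cathepsin B and rose from 782 to 8963 CPM in WT between 0 and 120 hpi. The sources used here do not state the strand of the counting, and the share of Ctsb reads in Fdft1 was not tested.

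Lss (chr10:76531588-76557138, plus strand) was the member with the largest difference between R35A and WT at 120 hpi. Sqle (0.47 ± 0.05, adjusted p = 6.19e-11) and Hmgcs1 (0.42 ± 0.07, adjusted p = 4.03e-06) were also higher in R35A than in WT there, by under 1.5-fold, and the call of Lss ended with DESeq2 (0.58). In WT it gave 20.0 and 20.8 CPM at 0 hpi, 17.4 and 18.4 CPM at 1 hpi, 23.6 and 23.0 CPM at 18 hpi, and 26.9 and 22.8 CPM at 120 hpi. In R35A it gave 19.6 and 20.9 CPM at 0 hpi, 25.0 and 24.2 CPM at 1 hpi, 25.2 and 24.7 CPM at 18 hpi, and 35.8 and 39.9 CPM at 120 hpi. In R35K it gave 19.6 and 20.3 CPM at 0 hpi and 27.1 and 30.1 CPM at 120 hpi. The R35A libraries at 120 hpi lay above every other library of WT and R35A. From 0 to 120 hpi Lss rose 1.87-fold in R35A (log2 fold change 0.90 ± 0.08, adjusted p = 1.87e-14), while the values were 0.29 ± 0.09 in WT (adjusted p = 0.0041) and 0.52 ± 0.08 in R35K (adjusted p = 3.08e-07), both under 1.5-fold. With DESeq2, its size factors or 1 fit over the 36 libraries the R35K value passed it, at 0.62 to 0.66.

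To count members, a gene was called changed when it moved at least 1.5-fold and its p, adjusted by Benjamini-Hochberg over all genes tested, did not exceed 0.05. In WT cells 2, 2, 3 and 3 of the 7 members were called lower than at 0 hpi at 1, 3, 6 and 18 hpi, where 9.27%, 11.5%, 14.7% and 23.2% of all genes tested were called lower. In R35A cells the counts were 2, 2, 2 and 3 of 7, beside 18.9%, 19.0%, 19.2% and 21.6% of all genes. In R35K cells they were 3, 1, 2 and 3 of 7, beside 17.4%, 16.8%, 17.8% and 20.5%. The genes called at 18 hpi were Srebf2, Idi1 and Dhcr7 in each construct, and no member was called higher up to 18 hpi. The summed fibroblast markers were also highest in WT at 18 hpi (16542 to 16951 CPM). The median log2 fold change of the 7 members at 18 hpi was -0.44 in WT, -0.45 in R35A and -0.27 in R35K, where that of all genes tested was 0.02, 0.01 and 0.01.

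Between successive timepoints up to 18 hpi no member passed both thresholds. None of the 7 was called between 1 and 3, 3 and 6, or 6 and 18 hpi in any construct. In WT, 1, 2 and 5 of 7 had an unadjusted p under 0.05 at these steps, in R35A 0, 3 and 0, and in R35K 0, 1 and 1. Of all genes tested, 1.04%, 1.04% and 13.3% were called at these steps in WT, 0.553%, 0.177% and 4.28% in R35A, and 0.347%, 1.19% and 5.4% in R35K. From 6 to 18 hpi in WT, 4 of 7 members passed the adjusted p alone. These were Dhcr7 (-0.57 ± 0.13, adjusted p = 0.000147) and Srebf2 (-0.44 ± 0.04, adjusted p = 1.24e-12), which were lower, and Sqle (0.21 ± 0.05, adjusted p = 0.000448) and Lss (0.30 ± 0.09, adjusted p = 0.00391), which were higher. Dhcr7 was called there with the filter of 10 counts or 1 fit over the 36 libraries (both -0.59), and without replicate 2 at 6 hpi (-0.65) or replicate 1 at 18 hpi (-0.61). Idi1 was at -1.23 ± 0.56 (adjusted p = 0.0704) and was called with unadjusted p or without replicate 2 at 6 hpi (-1.66).

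At 120 hpi the members were mostly above their 18 hpi levels, and their place relative to 0 hpi varied. Against 0 hpi, 2 of 7 members were called higher in R35A, Lss and Dhcr7, and 0 of 7 in WT and in R35K, where edgeR gave 3 and 4 members an unadjusted p under 0.05. The 3 members of WT were higher, while of the 4 in R35K Lss and Dhcr7 were higher and Srebf2 (-0.13 ± 0.04, adjusted p = 0.00698) and Fdft1 were lower. The value of Srebf2 was 0.01 with DESeq2 or its size factors. The median log2 fold change of the members from 0 to 120 hpi was 0.08 in WT, 0.41 in R35A and -0.10 in R35K, beside -0.36, -0.31 and -0.28 for all genes. The share of all genes called higher was 23.1% in WT, 24.2% in R35A and 25.4% in R35K. Against 18 hpi, 3 of 7 were called higher in WT, 5 of 7 in R35A and 3 of 7 in R35K, beside 27.5%, 24.5% and 24.7% of all genes. Srebf2, Idi1 and Dhcr7 rose in each construct, and Hmgcs1 and Lss (0.61 ± 0.08, adjusted p = 1.12e-09) rose as well in R35A, where the call of Lss ended with no low-count filter (0.58). The call of Idi1 ended in R35A without replicate 2 at 18 hpi (1.17, adjusted p = 0.076) or at 120 hpi (1.22, adjusted p = 0.0916), and in R35K without replicate 1 at 18 hpi (0.78, adjusted p = 0.211) or at 120 hpi (1.23, adjusted p = 0.107). The median log2 fold change of the members from 18 to 120 hpi was 0.52 in WT, 0.85 in R35A and 0.33 in R35K, while that of all genes was -0.09, -0.06 and -0.06.

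**Figure D2:**
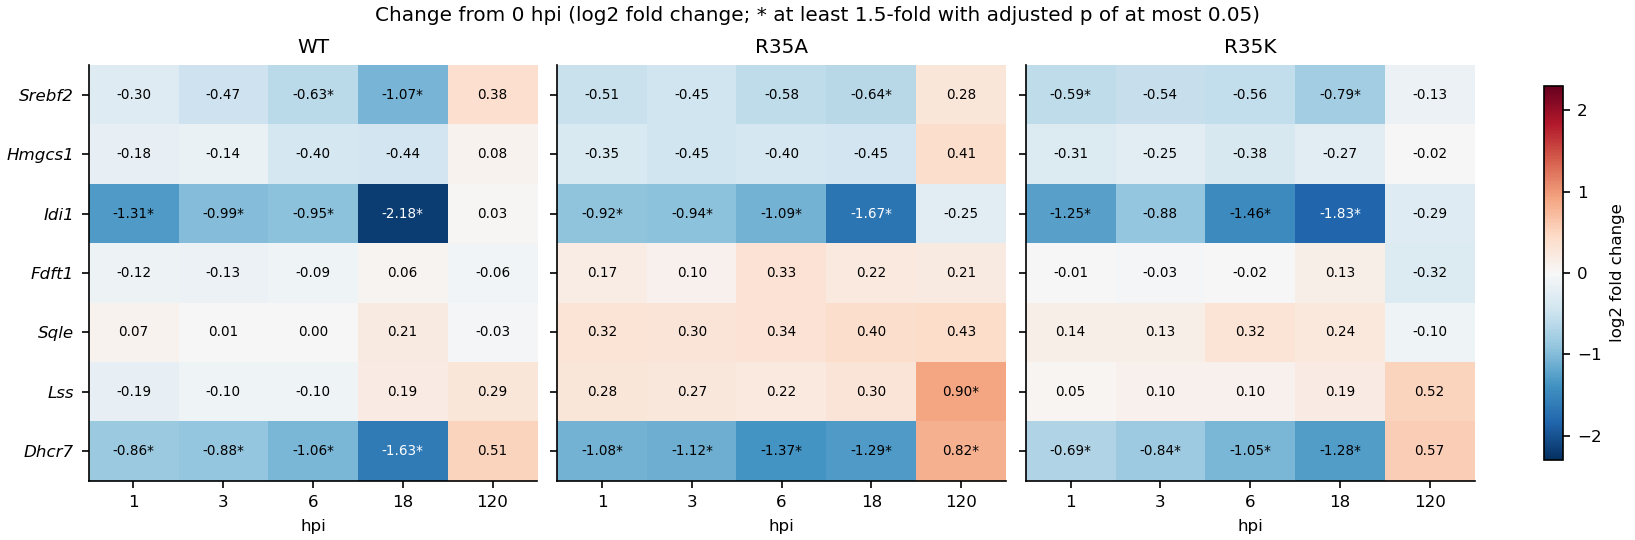
Heat map of the log2 fold change of each of the 7 genes (rows) from 0 hpi at each later timepoint in WT, R35A and R35K (columns), with blue for lower, red for higher and an asterisk where the change was at least 1.5-fold with an adjusted p of at most 0.05. Srebf2, Idi1 and Dhcr7 are blue with asterisks at 18 hpi in each construct, and the only red cells with asterisks are Lss and Dhcr7 in R35A at 120 hpi.

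The constructs were next compared with each other at the same timepoint. Before induction no member was called between R35A and WT, with adjusted p of 0.253 to 0.999, and 0% of all genes were called (1 of 7 members, Srebf2, had an unadjusted p under 0.05). At 1, 3, 6 and 18 hpi 0 of 7 members were called, beside 19.3%, 17.0%, 13.7% and 10.1% of all genes, although 5, 6, 4 and 3 members had an unadjusted p under 0.05. At 1 hpi Lss was at 0.46 ± 0.09 (adjusted p = 1.07e-05), Sqle at 0.26 ± 0.05 (adjusted p = 1.06e-05) and Srebf2 at -0.33 ± 0.04 (adjusted p = 8.1e-10) in R35A relative to WT. At 18 hpi the sign for Srebf2 was the other way, 0.31 ± 0.04 (adjusted p = 3.41e-08). At 120 hpi 1 of 7 was called, Lss, 1.53-fold higher in R35A (0.61 ± 0.08, adjusted p = 1.83e-08), beside 18.8% of all genes. That call ended with DESeq2 or with its size factors (0.58), and without replicate 2 of WT (0.49) or of R35A (0.53) at 120 hpi.

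Whether a construct altered the size of the change from 0 hpi was asked with an interaction term. Between R35A and WT 0 of 7 members were called at 1, 3, 6 and 18 hpi, where 4, 3, 4 and 3 had an unadjusted p under 0.05, and 1 of 7 at 120 hpi, Lss (0.62 ± 0.12, adjusted p = 5.58e-05). The shares of all genes called were 14.0%, 13.0%, 10.3%, 8.36% and 14.5%. The fall of Srebf2 was larger in R35A at 1 hpi, by -0.21 ± 0.06 (adjusted p = 0.00222), and smaller at 18 hpi, by 0.43 ± 0.06 (adjusted p = 3.68e-08), both under 1.5-fold. Sqle passed the adjusted p alone at every timepoint, with differences of 0.19 to 0.46. For Dhcr7 the difference at 18 hpi was 0.34 ± 0.16 (adjusted p = 0.122), which did not pass the test.

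R35K was compared with the other constructs in a fit over the 36 libraries. Against WT, 0 of 7 members were called at 1, 3, 6, 18 or 120 hpi, where 2, 2, 2, 3 and 1 had an unadjusted p under 0.05 and 11.9%, 10.0%, 12.2%, 13.3% and 10.1% of all genes were called. For Srebf2 the difference in change was -0.21 ± 0.06 at 1 hpi (adjusted p = 0.00327), 0.32 ± 0.06 at 18 hpi (adjusted p = 1.64e-05) and -0.53 ± 0.06 at 120 hpi (adjusted p = 5.36e-11). R35K cells thus had less of an early low than WT at 18 hpi and less of a recovery at 120 hpi, each by under 1.5-fold. Against R35A, 0 of 7 were called at these timepoints, where 2, 3, 2, 2 and 6 had an unadjusted p under 0.05 and 5.83%, 3.02%, 5.89%, 3.44% and 1.61% of all genes were called. At 120 hpi the 6 members were all lower in R35K, Sqle by -0.55 ± 0.07 (adjusted p = 6.22e-08), Fdft1 by -0.54 ± 0.14 (adjusted p = 0.00548), Hmgcs1 by -0.45 ± 0.10 (adjusted p = 0.0011) and Srebf2 by -0.43 ± 0.06 (adjusted p = 1.72e-07). The comparisons share the WT, R35A or R35K libraries, and R35K was deposited in tables of its own. At 0 hpi 0 of 7 members were called between R35K and WT in edgeR (adjusted p of 0.931 to 1, 0 of 7 with an unadjusted p under 0.05), and 0% of all genes were called.

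The rest of the pathway was read from lists of 7 mevalonate enzymes and 13 enzymes from squalene to cholesterol, which hold the 6 member enzymes and 14 others. Of these 20 enzymes, 8 were called lower and 1 higher at 18 hpi in WT, 4 and 0 in R35A, and 6 and 0 in R35K. Of all genes tested, 23.2%, 21.6% and 20.5% were called lower and 23.9%, 21.0% and 18.4% higher, so the share in R35A was near that of all genes. Their median log2 fold change there was -0.45, -0.15 and -0.23. By list, 3 of 7 mevalonate enzymes and 5 of 13 later enzymes were lower in WT, 1 and 3 in R35A, and 2 and 4 in R35K. Besides the members these included, in WT, Pmvk (-0.83) and Fdps (-0.75), which make and join isoprenoid units, and Lbr (-1.70), Cyp51 (-0.997) and Ebp (-0.70), which act on the sterol ring. The calls of Fdps and Ebp ended with DESeq2 or its size factors (-0.63 and -0.58). That of Fdps also ended without replicate 1 of WT at 0 hpi (-0.34), or without replicate 1 (-0.76) or 2 (-0.73) of WT at 18 hpi. Cyp51, the lanosterol demethylase, also fell in R35A (-0.70) and R35K (-0.81).

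From 18 to 120 hpi 12 of the 20 enzymes were called higher and 2 lower in WT, 15 and 1 in R35A, and 8 and 1 in R35K, with medians of 0.86, 0.97 and 0.48. Of all genes 27.5%, 24.5% and 24.7% were called higher and 33.0%, 29.4% and 28.5% lower at this step. Against 0 hpi the enzymes called higher at 120 hpi were 5 in WT, 11 in R35A and 5 in R35K, and those called lower were 3, 2 and 2. Of all genes 23.1%, 24.2% and 25.4% were called higher and 40.2%, 39.0% and 38.5% lower, so 5 of 20 enzymes called higher was near the share of all genes. Mvd, which makes isopentenyl diphosphate, rose in each construct, by 1.92 ± 0.09 in WT, 2.24 ± 0.08 in R35A and 1.84 ± 0.09 in R35K. Hsd17b7, a ketoreductase of the sterol ring, fell in each construct, with log2 fold changes of -1.16 in WT, -0.91 in R35A and -1.57 in R35K. Acat2 fell by 1.24 on the log2 scale in WT.

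The step of sterol C14 reduction can be carried out by the products of Tm7sf2 and of Lbr, the lamin B receptor, which ended on opposite sides of their 0 hpi levels. In WT, Lbr gave 228 and 232 CPM at 0 hpi, 235 and 242 CPM at 1 hpi, 70.8 and 70.9 CPM at 18 hpi, and 131 and 136 CPM at 120 hpi. In R35A it gave 218 and 215 CPM at 0 hpi, 76.8 and 70.7 CPM at 1 hpi, 37.4 and 38.2 CPM at 18 hpi, and 83.7 and 85.4 CPM at 120 hpi. Lbr thus fell at 1 hpi in R35A (-1.55 ± 0.04, adjusted p = 8e-37) and in R35K (-1.19 ± 0.05, adjusted p = 5.63e-22), where the value in WT was 0.05 ± 0.03 (adjusted p = 0.214). The difference in this change was -1.61 ± 0.05 between R35A and WT (adjusted p = 2.05e-30) and -1.16 ± 0.06 between R35K and WT (adjusted p = 1.26e-24). At 120 hpi Lbr was below 0 hpi in WT (-0.79), R35A (-1.36) and R35K (-1.39), and Tm7sf2 was above it (1.12, 1.40 and 1.41).

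**Figure D3:**
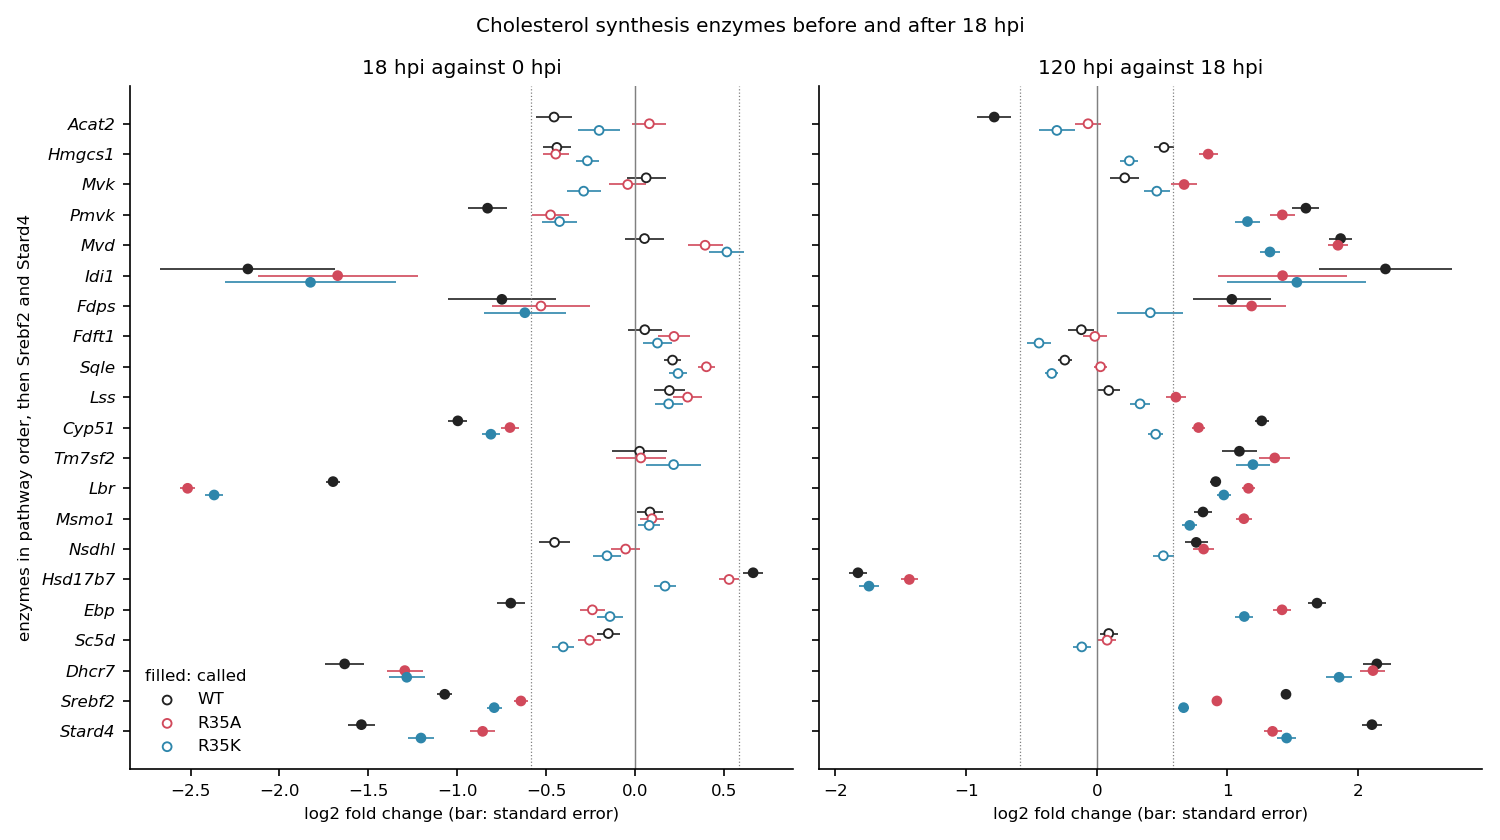
Log2 fold change from 0 to 18 hpi and from 18 to 120 hpi (horizontal axes) for enzymes of both lists in pathway order with Srebf2 and Stard4 (vertical axis) in WT, R35A and R35K, where bars are standard errors, filled points were called and dotted lines mark 1.5-fold. Most points lie left of 0 up to 18 hpi, with Lbr farthest left among the well-counted enzymes, and right of 0 from 18 to 120 hpi.

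Of 7 genes of SREBP control, Insig1 and Scap moved most at 120 hpi. Insig1, an SREBP2 target whose product retains the complex, rose by 2.20 ± 0.05 in WT, 1.87 ± 0.05 in R35A and 1.84 ± 0.05 in R35K. Scap, the escort, fell by 2.05, 1.68 and 1.88 on the log2 scale. From 1 to 120 hpi, timepoint by timepoint, the list had 0, 0, 0, 0 and 1 genes called higher and 0, 0, 2, 1 and 1 lower in WT. In R35A these were 0, 0, 0, 1 and 3 higher and 0, 0, 0, 1 and 1 lower, and in R35K 0, 0, 0, 0 and 2 higher and 2, 1, 1, 2 and 1 lower. The list includes the member Srebf2, so these counts restate its calls in part. Srebf2 was among those lower at 6 and 18 hpi in WT, at 18 hpi in R35A, and at 1 and 18 hpi in R35K. Of all genes, 10.7%, 12.0%, 15.1%, 23.9% and 23.1% were called higher at these timepoints in WT, 18.3%, 17.9%, 18.5%, 21.0% and 24.2% in R35A, and 15.5%, 15.9%, 16.3%, 18.4% and 25.4% in R35K. Those called lower were 9.27%, 11.5%, 14.7%, 23.2% and 40.2% in WT, 18.9%, 19.0%, 19.2%, 21.6% and 39.0% in R35A, and 17.4%, 16.8%, 17.8%, 20.5% and 38.5% in R35K.

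Per kilobase of exon in mm10 (GENCODE vM21), the order of levels in WT at 0 hpi was Srebf2 at 25.9 CPM per kb, Sqle at 12.5, Hmgcs1 at 7.66, Fdft1 at 5.10, Dhcr7 at 3.81, Lss at 1.89 and Idi1 at 0.407. At 120 hpi Dhcr7 at 5.43 CPM per kb stood above Fdft1 at 4.88, with the rest of the order as before. Across the 18 groups, on the deposited log2 scale, Srebf2 ran from 10.49 in WT at 18 hpi through 10.71 in R35K and 10.75 in R35A at 18 hpi to 11.71 in R35A and 11.96 in WT at 120 hpi. Its 3 lowest groups did not overlap, and over the whole order the libraries of 7 of 17 neighbouring pairs did. Dhcr7 spanned 2.38, from 6.87 in WT at 18 hpi to 9.25 in R35A at 120 hpi, with 11 of 17 neighbouring pairs overlapping. The span was 1.17 for Lss, 0.95 for Hmgcs1, 0.62 for Fdft1 and 0.54 for Sqle, where 14 to 16 of 17 pairs overlapped, and 2.24 for Idi1, with 16.

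The members other than Lss fell into 2 sets by the likeness of their courses. This was read over the 18 group means of log2 CPM, which share libraries' depth and scaling. With Srebf2, Pearson's r was 0.95 for Dhcr7, 0.90 for Idi1 and 0.87 for Hmgcs1, with Spearman's rho of 0.94, 0.83 and 0.86. It was 0.34 for Lss, -0.15 for Fdft1 and -0.27 for Sqle. Fdft1 and Sqle had r of 0.82 with each other. Lss lay between the sets, with r of 0.58 with Hmgcs1, 0.47 with Dhcr7, 0.18 with Idi1, 0.60 with Sqle and 0.51 with Fdft1. Without the 3 groups at 120 hpi the r of Srebf2 with Dhcr7 was 0.95, with Lss -0.58 and with Sqle -0.61, and Lss had 0.88 with Fdft1 and 0.86 with Sqle, over 15 groups. Lss was thus with Fdft1 and Sqle before 120 hpi.

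**Figure D4:**
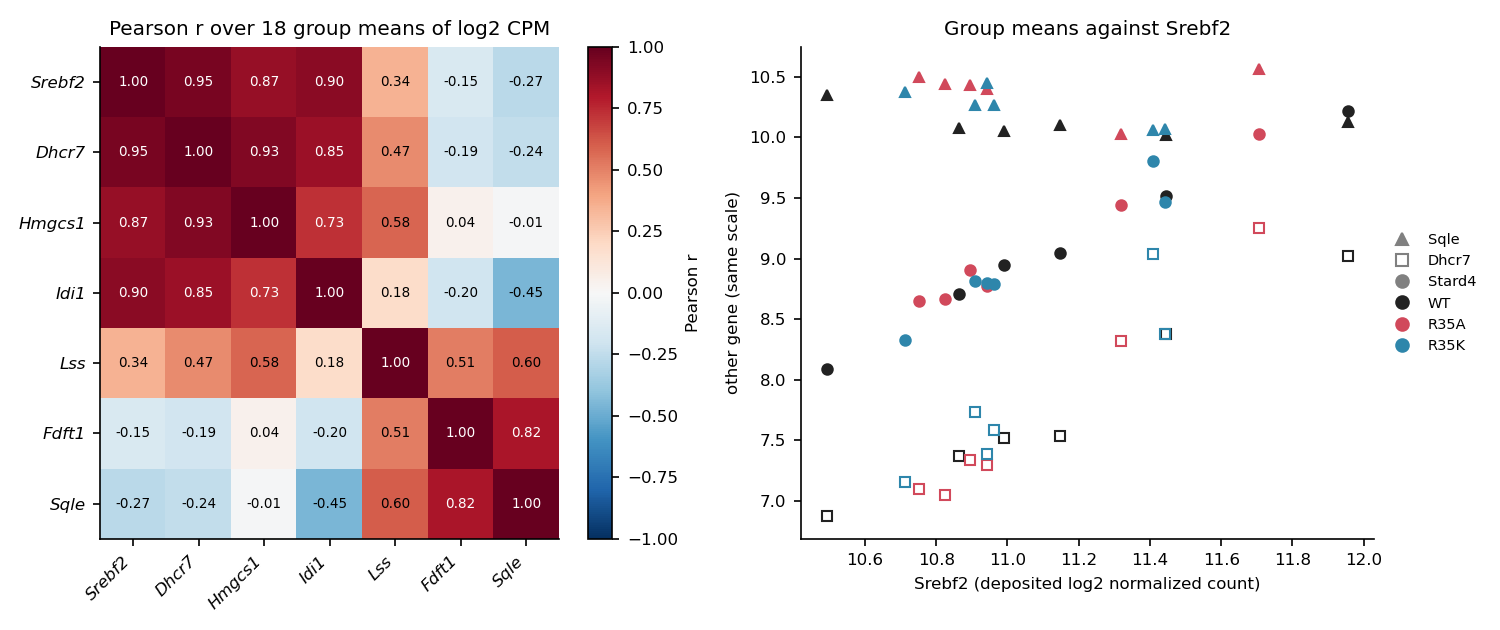
Left, Pearson's r over the 18 group means for each pair of the 7 genes, on a colour scale from -1 to 1. Right, group means of Stard4, Dhcr7 and Sqle (vertical axis) against Srebf2 (horizontal axis), both as deposited log2 values, with 1 point a group. Stard4 and Dhcr7 climb with Srebf2, and Sqle does not.

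Among the 17277 genes that passed the low-count filter over the 36 libraries, those most like Srebf2 were Stard4 (r = 0.983), Tomm22 (0.972) and Rassf5 (0.970). Stard4 encodes a carrier that moves cholesterol between membranes and is a known SREBP2 target. In WT it gave 48.7 and 48.7 CPM at 0 hpi, 15.5 and 17.9 CPM at 18 hpi and 69.6 and 75.0 CPM at 120 hpi. It fell by 1.54 on the log2 scale to 18 hpi in WT (SE 0.08, adjusted p = 9.63e-24), by 0.86 in R35A and by 1.204 in R35K. The fall was smaller in R35A than in WT by 0.68 ± 0.11 (adjusted p = 1.08e-06). Most like the mean of the 6 enzymes, each standardised over the groups, were Mrps12 (r = 0.920), Snd1 (0.918), Dcakd (0.914), Comtd1 (0.910) and Clic1 (0.905). That mean joins unlike courses. Its r was 0.86 with Lss, 0.84 with Hmgcs1 and 0.72 with Dhcr7, but 0.54 with the sparsely counted Idi1, 0.51 with Fdft1 and 0.44 with Sqle. Of the listed enzymes that are no members, Cyp51 (0.948), Pmvk (0.868) and Fdps (0.846) were like Srebf2, and Hsd17b7 (-0.796) ran against it.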

How the data were processed

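The RNA-seq came from 36 libraries in 18 groups. By the study's methods, the authors sequenced stranded single-end libraries of polyadenylated RNA. STAR 2.5.0a, run against mm10 after a FastQC check, gave the reads per gene, and DESeq2 1.14.1 was used for normalization. The annotation release and the strand column are not given in the sources used here. The deposited count tables hold unnormalized counts for 40354 genes. The deposited log2 tables hold 19067 genes, and 100% of their values were recovered as log2(count/size factor + 1), within 0.01 counts. R35K has tables of its own, and 0 columns were left unused. Library totals are given with the results and cover counting error only in part. The median squared replicate difference was 1.08 to 2.16 times that of counting noise.

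The members, lists and motifs were chosen with earlier results of these data known. Among the listed genes is 1 that is not reported here by name. Genes named besides the members are at most 4 of a list in a comparison from 0 hpi, those with the largest change among the called, and the genes whose course was most like Srebf2 or the enzymes' mean. Counts were analysed with edgeR 4.0.16 (filterByExpr, TMM, quasi-likelihood F test) and limma 3.58.1 in R 4.3.3, in a fit of the 24 WT and R35A libraries (16988 genes), a fit of the 12 R35K libraries (16434 genes) and, for R35K against the other constructs, a fit of all 36 (17277 genes). Calls used the 1.5-fold threshold of the study's methods and a limit of 0.05 on p after Benjamini-Hochberg adjustment over all genes tested. The study's results instead speak of changes above 2-fold. The study's methods do not say whether p was adjusted. Standard errors were derived from the F statistic. The labels call the replicates biological and do not say whether animals were shared. Replicate numbers showed no pairing common to all groups, which does not exclude animals shared by some of them. Tested on simulated data, the fit recovered 197 of 200 genes changed 2-fold at 1 hpi in WT among 16227 genes, with 1 false call. For R35K at 1 hpi it recovered 199 of 200, with 3 false calls. For the difference in change between R35K and WT at 1 hpi it recovered 191 of 200, with 6 false calls. Only well-counted genes were changed, so this recovery does not cover Idi1 or calls near 1.5-fold.

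Symbols were matched to GENCODE vM21 for 39171 of 40354 genes (97.07%). The settings varied were the test (DESeq2 1.42.0, Wald), the scaling (DESeq2 size factors in edgeR), the filter (none, or 10 counts), unadjusted p, a 2-fold or no fold threshold, a replicate block, 1 fit over all libraries, and leaving out each library. The other lists covered mevalonate enzymes, later sterol enzymes, SREBP control, sterol transport, LXR and efflux, fatty acid synthesis, and markers of B cells, macrophages, feeder fibroblasts, granulocytes and T cells.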

Additional observations from a re-analysis of the deposited data

Results flagged for a closer look

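Only the members and the list genes Lbr and Stard4 were screened here. Patterns in 3 of these were picked out because the change from 0 hpi differed between constructs at 1.5-fold or more. The difference itself was tested. Other list genes also passed, such as Elovl6 (-0.97 at 3 hpi) and Nceh1 (0.95 at 1 hpi) in R35A against WT. Lss rose more in R35A than in WT by 120 hpi, with a difference of 0.62 on the log2 scale (SE 0.12, adjusted p = 5.58e-05). That call ended without replicate 1 of R35A at 0 hpi (0.56) and without replicate 2 of WT (0.50) or of R35A (0.54) at 120 hpi.

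For Lbr the change in R35A differed from that in WT by -1.61, -1.38, -1.41 and -0.82 on the log2 scale after 1, 3, 6 and 18 hours, and only at 120 hpi by less than 1.5-fold. In R35K it differed from WT by -1.16, -0.99, -1.06, -0.63 and -0.63 over the 5 timepoints, the last a call that ended without replicate 1 of R35K at 120 hpi (-0.58).

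For Stard4 the change at 18 hpi differed between R35A and WT by 0.68, the fall being smaller in R35A.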

How the results depend on the processing

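Over 336 results for the 7 members, 43 were called, and none of these 43 changed direction under any alternative run. The calls numbered 35 with DESeq2, 39 with its size factors, 42 with no filter, 46 with the filter of 10 counts, 46 with 1 fit over the 36 libraries, 45 with unadjusted p, 23 at 2-fold and 151 with no fold threshold. The calls from 0 hpi numbered 10 in WT (5 at 2-fold, 20 with no fold threshold), 11 in R35A (7 with DESeq2, 6 at 2-fold, 32 with no fold threshold) and 9 in R35K (5 at 2-fold, 24 with no fold threshold). Between successive timepoints there were 3 in WT (5 with the filter of 10 counts, 5 with 1 fit, 12 with no fold threshold), 5 in R35A (2 at 2-fold) and 3 in R35K (9 with no fold threshold). Between R35A and WT there was 1 at the same timepoint (0 with DESeq2, its size factors or 2-fold, 23 with no fold threshold) and 1 in the change from 0 hpi (0 at 2-fold, 15 with no fold threshold). R35K had 0 against WT (5 with no fold threshold) and 0 against R35A (6 with no fold threshold).

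Leaving out each library in turn gave 7 to 11 calls from 0 hpi in WT, 7 to 12 in R35A and 6 to 10 in R35K. Between successive timepoints it gave 3 to 5 in WT, 4 to 5 in R35A and 2 to 3 in R35K. Between R35A and WT it gave 0 to 1 at the same timepoint and 0 to 1 in the change, and for R35K 0 to 0 against WT and 0 to 2 against R35A. Over all libraries left out, calls ended 31 times, 22 of them for Idi1 (8 without a library at 0 hpi), with replicate 1 of R35K at 18 hpi ending its calls at 18 hpi (-1.07) and from 18 to 120 hpi (0.78) in R35K. Hmgcs1 from 18 to 120 hpi in WT was called with the filter of 10 counts or 1 fit (0.64), and Srebf2 at 6 hpi in WT was no longer called with DESeq2 (-0.57).

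Equal replicate numbers did not mark a pairing common to all groups, though the replicate differences of some pairs of groups were correlated. Over 9880 genes and 153 pairs of groups the median correlation of replicate differences was -0.007, from -0.498 to 0.312, with 17 above 0.1. The replicate block left the 43 calls as they were, with 10, 11 and 9 from 0 hpi, 3, 5 and 3 between timepoints, 1 and 1 between R35A and WT, and 0 and 0 for R35K. For the other list genes, 351 changes were called, of which 23 ended with DESeq2, 22 with its size factors, 6 with no filter, 2 with the filter of 10 counts, 1 with the block, 5 with 1 fit, 152 at 2-fold and 42 without some library.

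DESeq2's size factors moved the median of all genes by 0.115 at 18 hpi and 0.158 at 120 hpi in WT, 0.129 and 0.136 at 120 hpi in R35A and R35K, and -0.106 for R35K against WT at 18 hpi, where the share of higher calls went from 66.8% to 52.8%. That share also went from 71.2% to 58.5% at 1 hpi and from 79.6% to 66.3% at 6 hpi for R35K against R35A. With 1 fit over 36 libraries it went from 26.7% to 13.8% for R35A from 3 to 6 hpi. Cause was not tested for any of these. The counts of Idi1, 2 to 29 in a library, limit its values most.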

Other observations

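Genes of cholesterol storage, efflux and lysosomal release were mostly called higher or not called. Of 8 genes of LXR signalling, efflux and esterification, 4, 4, 3, 4 and 7 were called higher at the 5 timepoints from 1 to 120 hpi in WT, 5, 5, 5, 5 and 7 in R35A, and 5, 5, 5, 6 and 7 in R35K. The list had 1 gene called lower, in R35A at 1 hpi (-0.59). That call ended with DESeq2, its size factors, either other filter or 1 fit (-0.51 to -0.57). Of all genes, 10.7%, 12.0%, 15.1%, 23.9% and 23.1% were called higher at these timepoints in WT, 18.3%, 17.9%, 18.5%, 21.0% and 24.2% in R35A, and 15.5%, 15.9%, 16.3%, 18.4% and 25.4% in R35K. At 120 hpi in WT these included Nr1h3, the gene of LXRα (3.51 ± 0.34), Nceh1, a cholesterol ester hydrolase (3.25 ± 0.06), Soat1, which esterifies cholesterol for storage (3.14 ± 0.04), and Abcg1, an efflux transporter (2.53 ± 0.05). Ch25h, which makes 25-hydroxycholesterol, rose at 1 hpi by 1.87 ± 0.32 in WT, 2.21 ± 0.22 in R35A and 3.09 ± 0.23 in R35K.

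Of 7 genes of sterol transport and lysosomal release, 1, 1, 1, 3 and 4 were called higher in WT at these timepoints and 0, 1, 1, 1 and 0 lower. At 1, 3 and 6 hpi the 1 of 7 called higher was near the share of all genes in WT (10.7%, 12.0% and 15.1%). At 18 and 120 hpi that share was 23.9% and 23.1%. Of all genes in WT, 9.27%, 11.5%, 14.7%, 23.2% and 40.2% were called lower from 1 to 120 hpi. In both mutants 4 were called higher and 1 lower at each timepoint from 1 to 18 hpi, and 4 higher at 120 hpi. Lipa, the lysosomal acid lipase, rose at 1 hpi by 0.92 ± 0.04 in WT, 1.48 ± 0.04 in R35A and 2.53 ± 0.05 in R35K, and at 120 hpi Gramd1b, a sterol carrier at membrane contacts, rose by 3.18 ± 0.07 in WT.

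Of 8 genes of fatty acid synthesis, 1, 1, 1, 2 and 2 were called higher in WT and 2, 2, 2, 3 and 4 lower, beside 9.27%, 11.5%, 14.7%, 23.2% and 40.2% of all genes called lower in WT. In R35A these were 1, 1, 0, 1 and 2 higher and 2, 2, 2, 2 and 3 lower, and in R35K 1, 0, 1, 1 and 2 higher and 3, 2, 3, 3 and 5 lower, beside 18.9%, 19.0%, 19.2%, 21.6% and 39.0% of all genes called lower in R35A and 17.4%, 16.8%, 17.8%, 20.5% and 38.5% in R35K. Over these timepoints 10.7% to 23.9% of all genes were called higher in WT, 17.9% to 24.2% in R35A and 15.5% to 25.4% in R35K. Elovl6, an elongase, fell by 2.84 and Scd1, a desaturase, by 1.22 on the log2 scale at 18 hpi in WT, and at 120 hpi Scd1 fell by 2.83 and Me1 by 3.41.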
